A study of Rattus norvegicus with 415 samples.

Results

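A list of 8 rat genes, made of inflammatory cytokines and of targets and regulators of the transcription factor NF-kB, was followed across adipose tissue samples. The genes were chosen by their Ensembl identifiers, which were paired with the symbols Il6, Il1b, Ccl2, Cxcl1, Ptgs2, Icam1, Nfkbia and Socs3. Of the 8 identifiers, 7 had a row among the 18358 genes of the deposited table, and Il6 was not analysed here. The study measured RNA by sequencing in adipose tissue of 17-week-old outbred rats (Rattus norvegicus), in order to map the genetics of gene expression next to metabolic traits. All samples belong to 1 group, with no treatment, genotype or sex named in the labels used here. The only labels that differ between samples are a title number and a suffix, whose meaning is not given. Nothing in the labels says that the samples came from separate animals, so the p-values below measure the spread between samples, some of which may share an origin. The identifiers could not be paired with symbols beyond the listed genes, so the adipose label and the other cells of the tissue were not checked against marker genes.

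NF-kB is held inactive in the cytoplasm by inhibitor proteins, of which the product of Nfkbia, IkB-alpha, is the best known. Signals from receptors for interleukin 1, tumour necrosis factor or bacterial products lead to the breakdown of the inhibitor, and NF-kB then enters the nucleus and induces cytokines, chemokines, adhesion molecules and also Nfkbia itself, which closes a negative feedback loop. In adipose tissue such transcripts can come from macrophages and other immune cells, from stromal and endothelial cells and from adipocytes, and low-grade expression of several of them is known from obesity. Socs3, an inhibitor of cytokine receptor signalling that is induced through STAT3, provides a second feedback loop.

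The sequences before the start of 3 of the genes are shown because these promoters held a match to the NF-kB consensus, the kind of sequence that this factor binds. The consensus searched was GGGRNNYYCC on both strands, with R for A or G, Y for C or T and N for any base. They are the 250 bases before the annotated start, in the direction of transcription, from the RefSeq table of the GRCr8 assembly, with the matches in capitals.
Cxcl1, chr14:17479322-17479571, minus strand: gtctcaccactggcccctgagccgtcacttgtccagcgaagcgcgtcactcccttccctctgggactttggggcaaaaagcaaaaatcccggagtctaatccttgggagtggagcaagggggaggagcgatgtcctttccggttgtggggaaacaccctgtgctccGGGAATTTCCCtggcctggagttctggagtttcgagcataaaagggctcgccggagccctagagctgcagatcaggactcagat
Nfkbia, chr6:78597073-78597322, minus strand: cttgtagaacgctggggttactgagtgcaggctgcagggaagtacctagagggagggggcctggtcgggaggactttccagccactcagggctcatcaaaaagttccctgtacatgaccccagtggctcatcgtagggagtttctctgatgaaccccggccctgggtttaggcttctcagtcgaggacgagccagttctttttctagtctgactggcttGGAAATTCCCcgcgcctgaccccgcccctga
Socs3, chr10:103694769-103695018, minus strand: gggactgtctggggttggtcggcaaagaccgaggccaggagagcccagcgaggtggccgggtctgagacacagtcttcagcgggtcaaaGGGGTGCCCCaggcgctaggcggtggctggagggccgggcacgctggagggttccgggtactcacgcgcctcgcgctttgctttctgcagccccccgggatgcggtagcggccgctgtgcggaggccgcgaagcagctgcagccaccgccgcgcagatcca
The capitals in Cxcl1 are 2 overlapping matches whose first bases lie at -84 and -83 from the start, the match in Nfkbia begins at -31 and that in Socs3 at -161. Of the 7 genes with a row, 6 were found in the promoter table by symbol, and 3 of these 6 held a match, against 7.51% of all 33469 promoters of 300 bases. No match was found in the same window of Il1b, Ptgs2 or Icam1. That of Icam1 held TGGAAATTCC, which misses the consensus in its first base, and near matches were not counted in any promoter. A match is a description of the letters and was not tested as a binding site.

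Levels are given as FPKM, reads per length of gene and per sequencing depth after the authors' scaling between samples, so they can be compared between genes. The 7 genes spanned a wide range of levels and none was at 0 in any sample. Nfkbia, the inhibitor of NF-kB (ENSRNOG00000007390), had the highest level, with a lowest value of 50.7, a median of 77.5 and a highest value of 119.8 FPKM. Its mean of 79.02 ± 16.7 FPKM (SD over all samples, as for every mean unless a number is given) was above that of 95.4% of the 16131 genes kept after a filter on low values. Icam1 (ENSRNOG00000020679), the endothelial and leukocyte adhesion receptor to which integrins bind, ran from 18.5 over a median of 32.6 to 45.4 FPKM, with a mean of 32.5 ± 3.92 FPKM. Both were present in every sample at a level above the median mean of all kept genes, 15.5 FPKM.

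The ligands and the inducible enzyme were lower and, relative to their level, spread more widely. Ccl2 (ENSRNOG00000007159), the chemokine that attracts monocytes, ran from 6.09 over a median of 18.3 to 67.3 FPKM, with a mean of 20.2 ± 8.91 FPKM. Socs3 (ENSRNOG00000002946) ran from 2.58 over a median of 9.47 to 35.8 FPKM, with a mean of 10.1 ± 3.93 FPKM. Both stayed well above the level of single reads, with a median of 72 and 37 reads per sample. Il1b (ENSRNOG00000004649), the cytokine interleukin 1 beta, ran from 0.447 over a median of 2.14 to 23.6 FPKM, with a mean of 2.74 ± 2.42 FPKM. Cxcl1 (ENSRNOG00000002802), a chemokine that attracts neutrophils, ran from 0.280 over a median of 2.12 to 10.1 FPKM, with a mean of 2.24 ± 1.05 FPKM. Ptgs2 (ENSRNOG00000002525), which encodes the inducible cyclooxygenase of prostaglandin synthesis, ran from 0.402 over a median of 1.54 to 5.44 FPKM, with a mean of 1.71 ± 0.859 FPKM. These 3 genes rested on the fewest reads of the 7, a median of 13 for Il1b, 9 for Cxcl1 and 31 for Ptgs2.

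**Figure D1:**
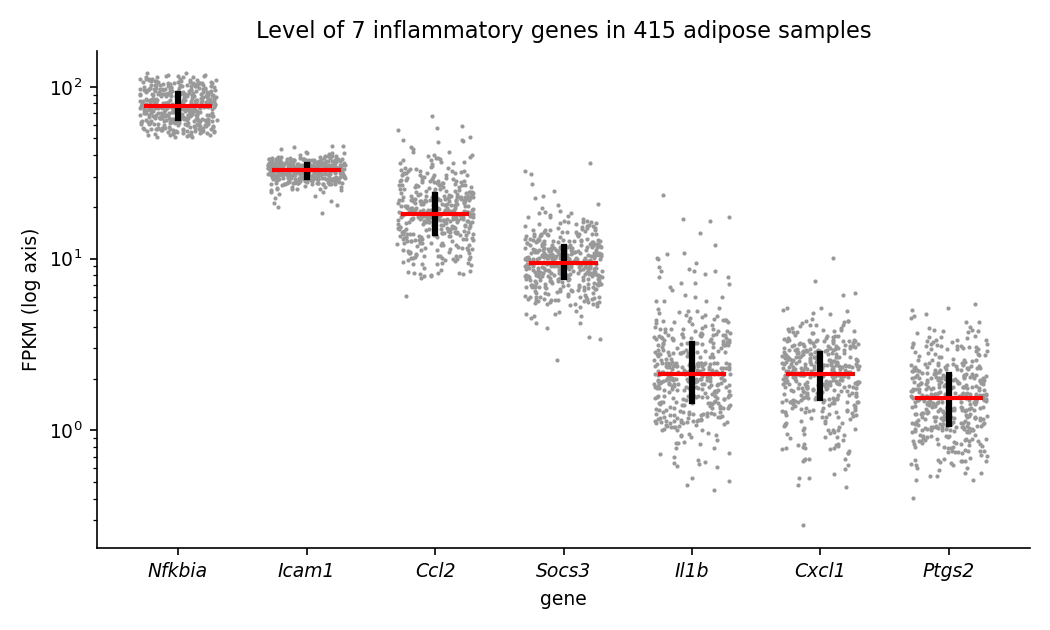
FPKM (log axis) of the 7 inflammatory genes in all adipose samples. Each grey point is 1 sample, the red line is the median and the black bar the range between the quartiles. Nfkbia and Icam1 form narrow bands at medians of 77.5 and 32.6 FPKM, and Il1b has a tail up to 23.6 FPKM.

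The order of the levels was nearly fixed within samples at the top and not at the bottom. Nfkbia was above Icam1 in 100% of samples, with a median ratio of 2.38. Icam1 was above Ccl2 in 91.8% of samples, Ccl2 above Socs3 in 94.2% and Socs3 above Il1b in 98.8%. The low genes changed places: Il1b was above Cxcl1 in 50.1% of samples, and Cxcl1 above Ptgs2 in 66.3%. Neither Il1b nor Cxcl1 was therefore regularly the higher within a sample, and the levels of Cxcl1 and Ptgs2 overlapped broadly. Differences in level between genes were not tested.

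The genes differed in how their samples spread. The coefficient of variation was 88.3% for Il1b, 50.1% for Ptgs2, 47.04% for Cxcl1, 44.04% for Ccl2 and 38.9% for Socs3, against a median of 18.2% over all kept genes. It was 21.1% for Nfkbia and 12.1% for Icam1, the adhesion receptor, which was the steadiest of the 7. On the log2(FPKM + 1) scale used for all tests, the SD of Il1b, 0.63, exceeded that of 89.1% of kept genes, and that of Icam1, 0.17, exceeded that of 31.05%. Reads set a floor on this spread, because low genes vary by counting alone. For Cxcl1 counting error amounted to 47.8% of the variance of its FPKM between samples. It amounted to 17.7% for Icam1, 16.7% for Socs3, 11.7% for Ptgs2, 7.35% for Il1b, 6.85% for Ccl2 and 4.03% for Nfkbia. Nfkbia thus varied 24.8 times as much as counting alone gives, a ratio above that of 92.6% of kept genes. This ratio grows with the number of reads, and Nfkbia had a mean of 569 reads per sample, the most of the 7. Its coefficient of variation was near the median gene, and its SD on the log2 scale exceeded that of 62.4% of kept genes.

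The shape of the spread separated Il1b from Nfkbia. Il1b lay above 4 times its own median in 13 samples and above 2 times in 49. Of the other 6 genes, Cxcl1 alone passed 4 times its median, in 1 sample. Above 2 times the median lay 35 samples for Ptgs2, 22 for Ccl2, 15 for Cxcl1 and 10 for Socs3, and none for Icam1 or Nfkbia. Nfkbia had no tail on either side. Its samples filled the range from 50 to 120 FPKM, with 57, 87, 86, 70, 60, 38 and 17 samples in successive steps of 10 FPKM.

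Samples far above the others were rare by a wide fence. Counted as far-out were samples more than 3 interquartile ranges above the upper quartile of log2(FPKM + 1), and 28.1% of kept genes had at least 1 such sample. Among the 7 genes, Il1b alone had one, the sample with title number 64024 and suffix 3, at 23.6 FPKM or 11.03 times the median. Icam1 had 1 sample as far below its lower quartile, and the other genes had none. With a pseudocount of 0.1 in place of 1 the Il1b sample lay inside the fence and the genes had 0 far-out high samples. With a fence of 1.5 interquartile ranges the 7 genes had 41 high values in 29 samples. These were 17 for Il1b, 7 for Socs3, 6 for Ccl2, 4 each for Cxcl1 and Ptgs2, 3 for Icam1 and 0 for Nfkbia.

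Some samples were high in several of the genes at once. The lists of the 10 highest samples of each gene held 50 samples, of which 13 were on more than 1 list and 6 on at least 3. Of the 10 highest samples of Il1b, 6 were also among the 10 highest of Icam1 and 4 among those of Socs3. Ccl2 shared 3 with Cxcl1 and 3 with Ptgs2, and Icam1 shared 3 with Socs3. Of the 21 pairs of lists, 9 shared no sample. These were the 6 with Nfkbia and those of Il1b with Ptgs2, Cxcl1 with Ptgs2 and Ptgs2 with Icam1. The overlap between lists of unrelated genes was not computed, so no pair of lists was compared with chance. Lists of 10 samples can share none when the genes are unrelated. The empty pairs therefore do not by themselves set Nfkbia apart from the other genes.

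The 6 samples on at least 3 lists did not share 1 profile. The sample 62692 with suffix 3 had 16.6 FPKM of Il1b, 45.2 of Icam1 and 32.1 of Socs3, with Ccl2 at 29.3, Cxcl1 at 3.33, Ptgs2 at 1.61 and Nfkbia at 91.3. The sample 62562 with suffix 6 had 17.0 FPKM of Il1b, the highest Icam1 of all samples at 45.4 and 27.3 of Socs3, while its Cxcl1, at 0.680, was below the 5th percentile of that gene, 0.798. The sample 62734 with suffix 4 was high in the same genes, with 14.02 FPKM of Il1b, 43.7 of Icam1 and 22.4 of Socs3. These 3 were high in Il1b, Icam1 and Socs3 together, with Ptgs2 between 1.54 and 1.85 FPKM.

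The other three were high in Ccl2. The sample 62378 with suffix 4 had the highest Cxcl1 of all, 10.1 FPKM, with Ccl2 at 50.7 and Socs3 at 31.1, but Ptgs2 at 1.10 and Nfkbia at 61.2. The sample 62857 with suffix 4 had the highest Ptgs2 of all, 5.44 FPKM, with Ccl2 at 56.1 and Socs3 at 24.7. The sample 62679 with suffix 3 was among the 10 highest of 4 genes, with Il1b at 10.6, Ccl2 at 44.7, Cxcl1 at 4.75 and Icam1 at 41.3 FPKM. Its Socs3, 11.98 FPKM, was close to the upper quartile of 11.7. Nfkbia in these 6 samples ran from 61.2 to 91.3 FPKM, inside the range between its 5th and 95th percentiles, 54.95 to 108.5 FPKM. The sample with the highest Nfkbia, 62422 with suffix 3 at 119.8 FPKM, had the lowest Ccl2 of all samples, 6.09 FPKM.

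Co-variation was then measured over all samples, as the slope of each kept gene on each of the 7 genes, with limma and Benjamini-Hochberg adjustment over all 16130 genes of a fit. A pair was called where the adjusted p was under 0.05 in both directions of the fit. Of 21 pairs, 15 were called, 11 with a correlation above 0 and 4 below. The 15 pairs without Nfkbia had a median Pearson r of 0.223, with r above 0 in 14 of them, and 10 were called, all above 0. Of the 6 pairs with Nfkbia, 5 had r below 0, 4 were called below 0 and 1, with Ptgs2, above 0. In bulk tissue a change in the share of a cell type and a change in RNA per cell cannot be told apart in any of these values.

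These counts stand against a high background of genes that vary together. A slope above 0 was called for 28.8% of all genes on Il1b and for 4 of the 6 other inflammatory genes, and a slope below 0 for 27% and for 1 of 6. On Ccl2 the background was 30.2% above and 28.4% below 0, against 5 and 1 of 6. On Socs3 it was 21.5% above and 17.3% below, against 5 and 1 of 6. On Icam1 it was 24% above and 25.9% below, against 4 and 1 of 6. On Ptgs2 it was 21% above and 21.1% below, against 4 and 0 of 6, with 1 of 6 below 0, Icam1, at an unadjusted p under 0.05.

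The backgrounds of Cxcl1 and Nfkbia were lower. On Cxcl1 a slope above 0 was called for 1.27% of all genes, and for 2 of the 6 inflammatory genes, Ccl2 and Socs3, which ranked as number 7 and number 13 from the highest r among 16130 genes. A slope below 0 on Cxcl1 was called for 1.57% of genes and for 0 of the 6 by limma, also with 0 of the 6 at an unadjusted p under 0.05. On Nfkbia the background was 10.1% above and 10.4% below 0, against 1 and 4 of 6. The median r of the 6 other genes was 0.286 on Socs3, 0.237 on Ccl2, 0.182 on Il1b, 0.160 on Icam1, 0.139 on Cxcl1, 0.129 on Ptgs2 and -0.162 on Nfkbia, while the median r of all genes lay between -0.0102 and 0.00951 in these fits.

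**Figure D2:**
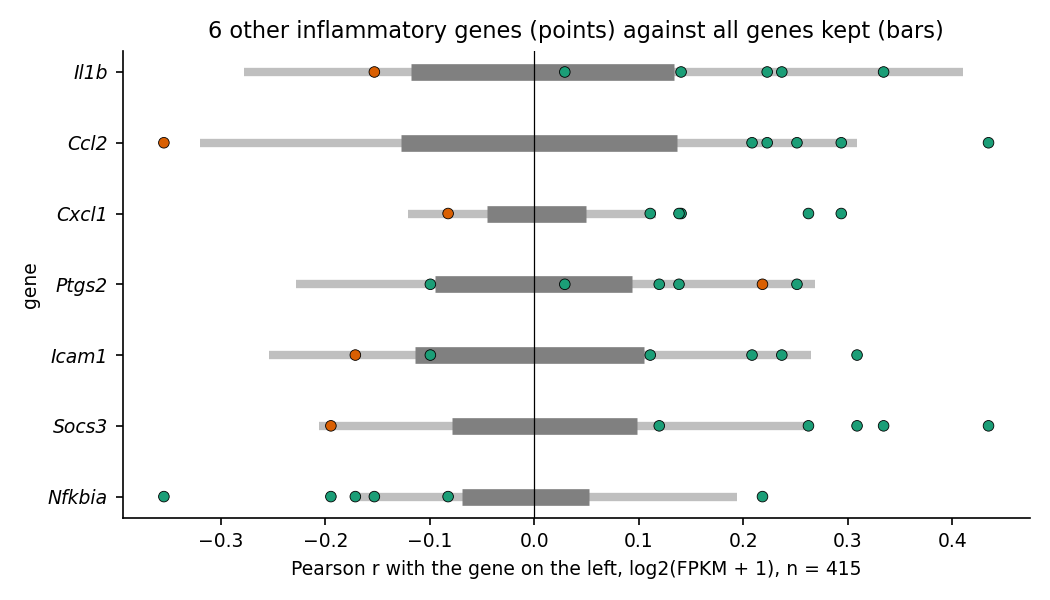
Pearson r of log2(FPKM + 1) with the gene named on the left, over all samples. Points are the other inflammatory genes, orange for Nfkbia and green for the rest, the light bar spans the 5th to 95th percentile and the dark bar the quartiles of all kept genes. Green points lie mostly right of 0, except in the row of Nfkbia, where all but Ptgs2 lie left of 0. Orange points lie left of 0 apart from the row of Ptgs2.

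**Figure D3:**
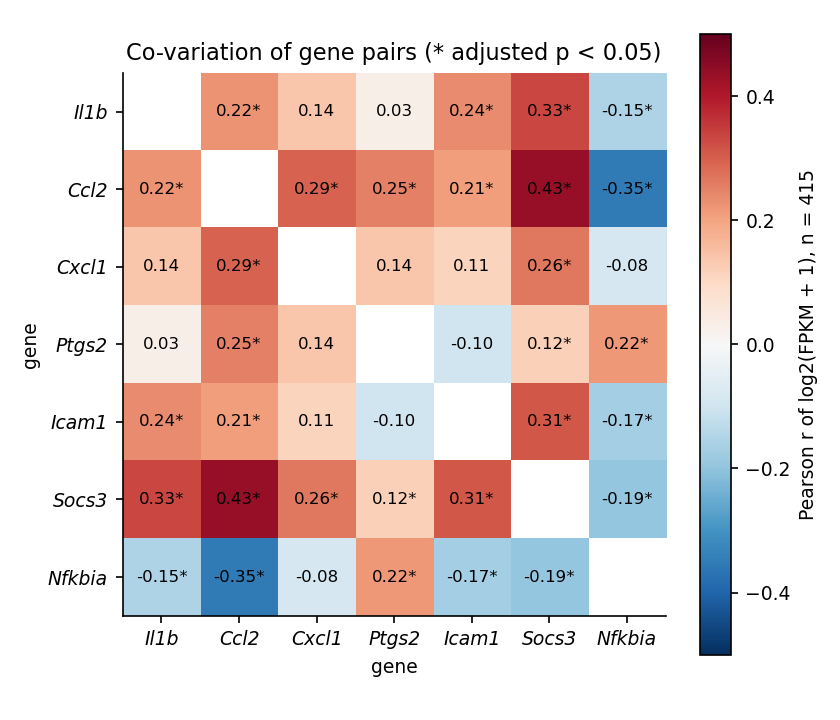
Pearson r of log2(FPKM + 1) for each pair of the 7 genes over all samples, red above 0 and blue below 0, with an asterisk where the adjusted p from limma was under 0.05 in both directions. The row of Nfkbia is blue apart from Ptgs2 (r = 0.218), and the strongest red cell is Ccl2 with Socs3 (r = 0.435).

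The strongest pair was Ccl2, the monocyte chemokine, with Socs3, the cytokine signalling inhibitor. Their r was 0.435 and Spearman's rho 0.459, and the two-sided permutation p of 1e-05 for each is as small as 100000 permutations allow. Leaving out the 2 samples most distant from the median gave an r of 0.438, and the limma adjusted p was 7.72e-18 in the weaker direction. Within the 3 blocks of title numbers described below, with 9.4%, 55.9% and 34.7% of the samples, r was 0.201, 0.419 and 0.539. In the fit on Socs3, Ccl2 ranked as number 25 from the highest r among 16130 genes, and in the fit on Ccl2, Socs3 ranked as number 85. This pair was still called with the first 10 principal components of all genes as covariates, at a partial r of 0.338.

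Ccl2 also rose with Cxcl1 and with Ptgs2. For Ccl2 and Cxcl1 r was 0.294 and rho 0.269 (permutation p = 1e-05 for each), r without the farthest samples was 0.290, and the values within blocks were 0.210, 0.325 and 0.273. For Ccl2 and Ptgs2 r was 0.251 and rho 0.227 (permutation p = 1e-05 and 2e-05), 0.231 without the farthest samples and 0.274, 0.270 and 0.233 within blocks. The limma adjusted p was 2.24e-06 and 2.18e-06. Both pairs were called with the 10 components as covariates, at partial r of 0.226 and 0.234. Cxcl1 and Socs3 had an r of 0.262 and rho of 0.264 (permutation p = 1e-05 for each; limma adjusted p = 5.61e-05). Within the first block, with 39 samples, their r was -0.0414, against 0.303 and 0.267 in the other blocks, and with the components the pair was not called (partial r of 0.162, limma adjusted p = 0.0678).

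Il1b rose with Socs3 and with Icam1. For Il1b and Socs3 r was 0.334 and rho 0.213 (permutation p = 1e-05 and 4e-05; limma adjusted p = 1.35e-10), 0.306 without the farthest samples and 0.194, 0.373 and 0.298 within blocks. For Icam1 and Socs3 r was 0.309 and rho 0.260 (permutation p = 1e-05 for each; limma adjusted p = 4.41e-09), and 0.138, 0.342 and 0.290 within blocks. For Il1b and Icam1 r was 0.237 and rho 0.176 (permutation p = 1e-05 and 0.00037; limma adjusted p = 7.50e-06), and 0.232, 0.301 and 0.124 within blocks. Of these 3 pairs, Icam1 with Socs3 was called with the 10 components as covariates (partial r of 0.181, limma adjusted p = 0.0156), whereas Il1b with Socs3 (0.0693, limma adjusted p = 0.510) and Il1b with Icam1 (0.0394, limma adjusted p = 0.705) were not. For both pairs with Il1b, rho was lower than r.

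The remaining called pairs above 0 were Il1b with Ccl2 (r = 0.223), Ccl2 with Icam1 (r = 0.208), Ptgs2 with Socs3 (r = 0.120) and Ptgs2 with Nfkbia (r = 0.218). Il1b with Ccl2 and Ccl2 with Icam1 were lost with the components as covariates, at partial r of 0.0625 and 0.000221 and limma adjusted p of 0.5004 and 0.999. Ptgs2 with Socs3 stood close to the threshold (limma adjusted p = 0.0397; rho = 0.0870, permutation p = 0.0766) and was also lost with the components (partial r of 0.154, limma adjusted p = 0.0669). It was lost as well with ranks, a pseudocount of 0.1, log2 reads as a covariate, 1 sample per title number and without the 2 farthest samples (limma adjusted p from 0.0574 to 0.167), and had an r of -0.0199 within the first block. Of the 15 called pairs, 13 had the same sign in all 3 blocks, the exceptions being Cxcl1 and Ptgs2, each with Socs3. The pairs that were not called had r of 0.140 for Il1b and Cxcl1, 0.138 for Cxcl1 and Ptgs2, 0.111 for Cxcl1 and Icam1, 0.0291 for Il1b and Ptgs2, -0.0995 for Ptgs2 and Icam1 and -0.0825 for Cxcl1 and Nfkbia. Ptgs2 with Icam1 was called below 0 with log2 reads as a covariate (limma adjusted p = 0.0331). It was also called without the samples among the 10 highest of at least 3 genes (limma adjusted p = 0.0428). Il1b with Cxcl1 was called with 1 sample per title number, ranks and voom (limma adjusted p from 0.0315 to 0.0377). Cxcl1 with Ptgs2 was called with voom (limma adjusted p = 0.0368).

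Nfkbia, a textbook target of NF-kB, ran opposite to most of the others. With Ccl2 its r was -0.355 and rho -0.364 (permutation p = 1e-05 for each; limma adjusted p = 4.74e-12), -0.369 without the farthest samples, and -0.312, -0.289 and -0.455 within blocks. In the fit on Nfkbia, Ccl2 ranked as number 66 from the lowest r among 16130 genes. With Socs3 its r was -0.195 (permutation p of r = 8e-05; limma adjusted p = 0.000783), with Icam1 -0.171 (permutation p of r = 0.00053; limma adjusted p = 0.00416) and with Il1b -0.153 (permutation p of r = 0.00167; limma adjusted p = 0.0122). Within blocks r was -0.0948, -0.163 and -0.300 with Socs3, -0.247, -0.106 and -0.291 with Icam1 and -0.0926, -0.0658 and -0.298 with Il1b. Within blocks, the pairs with Socs3, Icam1 and Il1b were called in the third block only (limma adjusted p from 0.00303 to 0.00683). In the second block their limma adjusted p ran from 0.108 to 0.626. These p-values treat samples with the same title number as separate, and with 1 sample per title number the pair with Il1b was not called (r = -0.139, limma adjusted p = 0.0692). None of these 4 pairs was called with the 10 principal components as covariates: the partial r was -0.0161 with Ccl2, -0.00641 with Socs3, 0.0272 with Icam1 and -0.0566 with Il1b, with limma adjusted p from 0.554 to 0.972 and 0 of them under an unadjusted p of 0.05. The pair with Ptgs2 remained, at a partial r of 0.339 against 0.218 without the components.

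**Figure D4:**
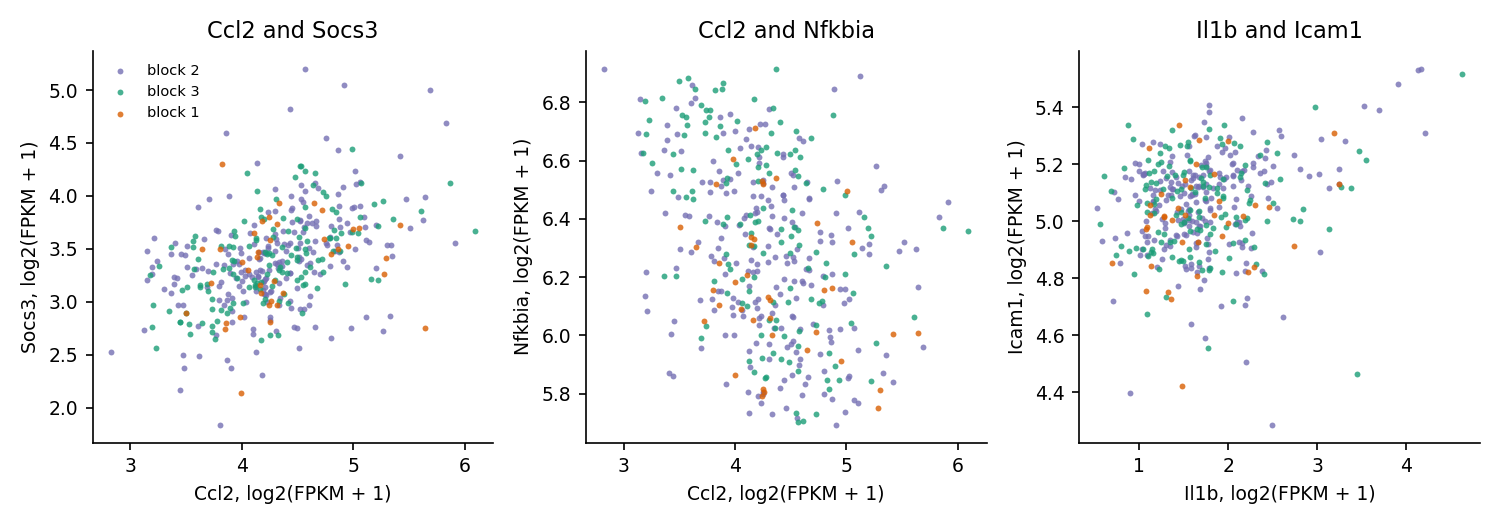
Log2(FPKM + 1) of Ccl2 against Socs3 (left), Ccl2 against Nfkbia (middle) and Il1b against Icam1 (right), 1 point per sample, coloured by block of title numbers. The points slope upward on the left (r = 0.435), downward in the middle (r = -0.355) and weakly upward on the right (r = 0.237), with the 3 blocks mixed throughout.

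The genes outside the list that were closest to each of its members differed, and the files give them identifiers and no symbols. The highest r with Nfkbia was 0.864, for ENSRNOG00000058186, which had a mean of 52.7 ± 19.9 FPKM, and 82 genes had an r above 0.5 with Nfkbia. The highest r with Ccl2 was 0.809, for ENSRNOG00000000239, at 11.2 ± 5.52 FPKM, and 22 genes were above 0.5 and 43 below -0.5. The highest r with Il1b was 0.746, for ENSRNOG00000001908, at 4.30 ± 4.52 FPKM, and 482 genes were above 0.5. The highest r was lower for Ptgs2 (0.575), Socs3 (0.565), Icam1 (0.541) and Cxcl1 (0.381), and the 4 genes had 16, 3, 3 and 0 genes above 0.5. The low maximum of Cxcl1 goes with its counting share of 47.8% of the variance, whose part in it was not tested. The mean r with all 7 genes was highest for ENSRNOG00000017828 (0.293) and ENSRNOG00000000239 (0.292).

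Samples that share a title number were compared next, since this is the one label that may tie samples together. Of the title numbers, 89 stood on more than 1 sample, and these covered 44.8% of the samples. Resemblance is the mean product of both samples' deviations from the mean of the gene over these pairs, relative to their mean square, so that it is near 0 for samples that resemble each other no more than any others. It was 0.629 for Nfkbia, higher than for 99.7% of kept genes, and -0.0352 for Il1b, lower than for all but 5.37%. Between them lay Ccl2 at 0.311, Cxcl1 at 0.265, Icam1 at 0.253, Ptgs2 at 0.229 and Socs3 at 0.205, around the median of 0.228 over all kept genes. The pair of extremes belonged to the NF-kB inhibitor and to the cytokine with the widest spread.

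A limma F test with the title number as a factor called 6 of the 7 genes, all but Il1b, against 57.5% of all genes. A factor with 89 levels takes a large share of the variance of any gene over these samples, with a median of 59.2% over all kept genes. The title number took 80.4% of the variance of Nfkbia (limma adjusted p = 2.66e-10). For Ccl2, Cxcl1, Ptgs2, Icam1 and Socs3 it took 57.2 to 61.3% (limma adjusted p from 0.00858 to 0.0451), and for Il1b 46.7% (limma adjusted p = 0.569). Without the samples under 3500000 reads 4 of the 7 genes were called, with Ccl2 and Socs3 lost (limma adjusted p = 0.0852 and 0.0756). The share of all genes called was not computed in that setting. Socs3 was also lost with a pseudocount of 0.1 (limma adjusted p = 0.0536) and after removal of a spline of the title number (limma adjusted p = 0.0913). The median difference within same-number pairs was 0.16 for Nfkbia on the log2 scale, against 0.30 over all 85905 pairs of samples. For Il1b it was 0.47 against 0.51, for Ccl2 0.40 against 0.52 and for Icam1 0.12 against 0.16. For Cxcl1 it was 0.41 in both, and for Ptgs2 and Socs3 it was 0.39 against 0.40 and 0.38 against 0.41.

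The 8 numbers that stand on 3 samples give examples by value. In the number 64003 the 3 samples had 105.7, 107.2 and 111.5 FPKM of Nfkbia, and 1.13, 3.14 and 7.79 FPKM of Il1b. In the number 63032 they had 53.9, 56.9 and 61.8 FPKM of Nfkbia and 2.33, 3.06 and 3.44 FPKM of Il1b. The 3 samples of the first number were all high in Nfkbia and those of the second all low. Over the 8 numbers the highest sample was 1.05 to 1.40 times the lowest for Nfkbia, with a median of 1.23, and 1.35 to 6.90 times for Il1b, with a median of 1.60. The number 64003 held both the 1.05 and the 6.90, while 64297 had Nfkbia at 83.1, 104.4 and 116.3 FPKM. Nfkbia varied less than Il1b over all samples, so its smaller ratios do not by themselves show resemblance. Ratios for samples of different numbers were not computed.

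**Figure D5:**
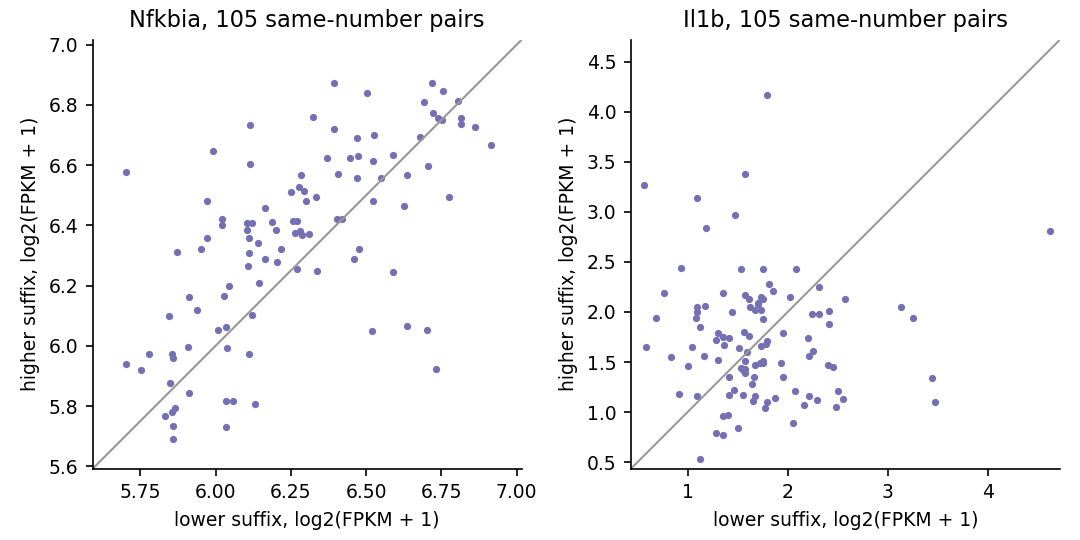
Log2(FPKM + 1) of both samples of each pair with the same title number, for Nfkbia (left) and Il1b (right), with the lower suffix on the horizontal and the higher suffix on the vertical axis and the line of equality. Nfkbia pairs follow the line (resemblance 0.629) and Il1b pairs scatter around it (resemblance -0.0352).

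The co-variation of the genes was partly shared by same-number samples. Over the means of the 89 numbers r was 0.566 for Ccl2 with Socs3 and -0.522 for Ccl2 with Nfkbia, and over the deviations of samples from their number's mean it was 0.384 and -0.229. For Il1b with Ccl2 the corresponding values were 0.317 and -0.0450, and for Il1b with Icam1 0.299 and -0.0627. Most other pairs with Nfkbia were also closer to 0 within numbers. The values were -0.0356 against -0.356 between them for Socs3, -0.0211 against -0.207 for Icam1 and 0.0216 against 0.252 for Ptgs2. For Il1b they were -0.105 against -0.269. Cxcl1 with Nfkbia went the other way, at -0.161 within against -0.0963 between numbers, as did Ptgs2 with Icam1, at -0.203 against -0.0506. These within-number values were chosen after the data were seen and are given with no test.

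No difference between the samples with suffix 4 and those with suffix 3, the most frequent suffixes, was called by limma for any of the 7 genes (0% of 16131 genes called). At an unadjusted p of 0.05, 0 of the 7 genes and 2.26% of all genes were under the threshold. Within the 56 numbers that hold both suffixes, also 0 of the 7 genes and 0% of all genes passed the adjusted threshold, while 4 of the 7 and 5.74% of all genes were under an unadjusted p of 0.05. The 4 were Ccl2, Ptgs2, Cxcl1 and Socs3, with suffix 4 higher by 0.24 ± 0.091, 0.17 ± 0.069, 0.15 ± 0.064 and 0.15 ± 0.071 on the log2 scale (± SE, limma adjusted p from 0.740 to 0.848). This comparison was added after the data were seen.

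Along the rank of the title number, from the lowest to the highest, 3 of the 7 genes had a slope. Nfkbia rose by 0.18 ± 0.050 (SE) on the log2 scale (limma adjusted p = 0.000874) and Icam1 by 0.07 ± 0.029 (limma adjusted p = 0.0285), and Ccl2 fell by 0.26 ± 0.093 (limma adjusted p = 0.0103). A slope above 0 was called for 31% of all genes and one below 0 for 30.2%, so 2 of 7 and 1 of 7 are near or below the background. The slopes of Icam1 and Ccl2 were no longer called without the 12 samples under 3500000 reads (0.04 and -0.11, limma adjusted p = 0.277 and 0.318), and that of Nfkbia was called there (0.18, limma adjusted p = 0.00172). Fits within a block kept the rank over all samples. Their slopes are therefore per whole range of that rank, of which a block covers only a part. In the second block the slope was -0.51 for Ptgs2 (limma adjusted p = 0.00371), against 0.00533 over all samples (limma adjusted p = 0.955). That of Nfkbia was -0.0840 there (limma adjusted p = 0.563), opposite in sign to its slope over all samples. In the same block the slope was 0.33 for Icam1 (limma adjusted p = 1.01e-05) and -0.70 for Ccl2 (limma adjusted p = 0.00417), in the direction of their slopes over all samples. The share of all genes with a called slope in that block was not computed.

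The title numbers fall into 3 blocks separated by gaps above 500, which are not groups of the study. Of the 7 genes, Nfkbia alone differed between the blocks, against 53% of all genes. Its mean was 72.2 ± 12.96 FPKM (SD, 39 samples) in the first block, 77.6 ± 15.8 FPKM in the second and 83.2 ± 17.98 FPKM in the third (limma adjusted p = 0.00118). The ranges of the blocks overlapped almost completely, from 52.8 to 103.8, 50.7 to 119.8 and 51.04 to 119.6 FPKM, and the block took 3.79% of the variance of Nfkbia. With gaps above 250, which gave 7 blocks, Ccl2 and Icam1 also differed (8.75% and 5.72% of their variance, limma adjusted p = 3.19e-06 and 0.000914). The share of all genes that differed between these 7 blocks was not computed, so this count has no background beside it. The median depth was 4409766, 4567750 and 4789737 reads per sample in these blocks, and with log2 reads as a covariate the block took 4.66% of the variance of Nfkbia (limma adjusted p = 0.000393).

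Reads per sample ran from 2139163 over a median of 4602134 to 6248214. A slope on log2 reads was called above 0 for 41.7% of all genes and below 0 for 28.3%, and for 3 and 1 of the 7 genes. Per doubling of reads the slope was 0.29 ± 0.113 for Cxcl1 (limma adjusted p = 0.0151), 0.25 ± 0.107 for Ptgs2 (0.0283 by the same test), 0.15 ± 0.044 for Icam1 (0.00127) and -0.35 ± 0.142 for Ccl2 (0.0201). The slope of Ccl2 rested on the shallow samples: without the 12 samples under 3500000 reads it was 0.43 (limma adjusted p = 0.0313). Those of Cxcl1 and Ptgs2 were 0.42 and 0.56 without them, and that of Icam1 was 0.04 and no longer called (limma adjusted p = 0.573). Nfkbia (-0.28, limma adjusted p = 0.0109) and Socs3 (0.36, limma adjusted p = 0.0374) had a called slope without these samples and none over all samples.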

How the data were processed

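Adipose RNA was sequenced as single-end reads on an Illumina HiSeq instrument, per the labels' protocols. The submitters' processing notes name STAR, Picard, featureCounts and DESeq2, with no versions. The genome build and annotation are not given in the sources used here. The deposited table gave no unit in its header. Its values were read as FPKM, scaled between samples by the authors: reads recovered from the steps of the values, with a whole gene length and 1 factor per sample, were whole within a tolerance of 0.001 for 100% of genes. Reads per sample ranged from 2139163 to 6248214, and this depth limits the precision of Il1b, Cxcl1 and Ptgs2 most.

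Tests used log2(FPKM + 1) over genes above 1 FPKM in at least 20% of samples (16131 genes, with all 7 members kept). Slopes and F tests were fitted with limma 3.58.1 in R 4.3.3 with Benjamini-Hochberg adjustment over all genes, and correlations of single pairs had 100000 permutations. The 415 samples were 1 group, with blocks of 39, 232 and 144 samples. Of 318 title numbers, 89 were on several samples (186 samples, 105 pairs), and suffixes 3 and 4 on 175 and 178 samples. No count model was the main test for FPKM. The title number was used as the mean rank of its samples scaled from 0 to 1 over all samples, also in fits within blocks. This definition was adopted after the number of called genes under another way of ranking had been seen, and the same members had a called slope under both. Blocks were cut at gaps above 500, or above 250 as an alternative. The other alternatives were voom fitted to the recovered reads, a pseudocount of 0.1, filtering at 80% of samples or none, 1 sample per title number, leaving out samples under 3500000 reads, ranks, covariates (block, log2 reads, 10 principal components, a spline of the title number with 5 degrees of freedom), fits within blocks and pairs without the 2 farthest samples. Added after the data were seen were the fit without samples among the 10 highest of at least 3 members, the correlations within title numbers and the comparison of suffixes. The scripts were tested on simulated data. The tools were pandas 2.3.3, numpy 2.4.6, matplotlib 3.10.9 and scipy 1.17.1 under Python 3.11.15.

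The members and lists were chosen with earlier results of these data known. The named genes were all members, for each member the gene with the highest r outside the list, of which 4 are given by identifier, and the 2 genes with the highest mean r with the members. Lists of other pathway genes and of cell type markers could not be matched, because the gene table at hand pairs no symbols with the identifiers of the file. Promoters came from the RefSeq table of GRCr8, matched by symbol.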

Additional observations from a re-analysis of the deposited data

How the results depend on the processing

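Of the 21 pairs, 11 were called above 0 and 4 below 0. With 10 principal components as covariates these counts were 5 and 0 (0 below 0 at an unadjusted p under 0.05 by limma), and the r of Icam1 and Nfkbia turned to 0.0272. Within the first block, with 39 samples, they were 0 and 0 (1 and 0 at an unadjusted p under 0.05), and r turned to -0.0414 for Cxcl1 with Socs3 and to -0.0199 for Ptgs2 with Socs3. Within the second block 1 pair was called below 0, and within block 3 there were 7 called above 0. The blocks hold fewer samples. The other settings gave 9 to 13 pairs above 0 and 3 to 5 below. A slope on the title number was called for 3 members, and for 1 without samples under 3500000 reads, 1 with voom and 1 with log2 reads as a covariate. Within blocks 1 and 3 it was called for 0 and 0 members by limma (0 and 1 at an unadjusted p under 0.05), with a slope of -2.00 for Icam1 in the first block. Within the second block the slope turned to -0.51 for Ptgs2 and -0.0840 for Nfkbia. All title slopes within blocks are per whole range of the rank over all samples, of which a block covers only a part. A slope on reads was called for 4 members, for 1 within the first block and for 0 within block 3 (0 at an unadjusted p under 0.05), and that of Ccl2 turned to 0.43 without samples under 3500000 reads and to 0.29 within block 3. With blocks cut at gaps above 250, 3 members differed between blocks in place of 1. Shares of all genes called were not computed in the alternatives, so their counts of pairs and members have no background beside them. Far-out high samples numbered 1, and 41 with a fence of 1.5 interquartile ranges and 0 with a pseudocount of 0.1. The narrower fence counts more samples by its definition, and the cause of the other changes was not tested. Values that were called neither over all samples nor in the alternative also changed sign. With the components r turned to -0.0120 for Il1b with Ptgs2, 0.0942 for Cxcl1 with Nfkbia and 0.0612 for Ptgs2 with Icam1, and within block 1 it was -0.246 for Il1b with Ptgs2. The title slope of Ptgs2 turned to -0.0171 with 1 sample per title number, -0.0441 with log2 reads and -0.38 within block 3, and on ranks to -5.63 ranks, with 3.03 ranks for Cxcl1. Within block 1 the title slope of Cxcl1 turned to 0.63 and the reads slope of Nfkbia to 0.0859. Of the other values of single genes and pairs, 468 kept their direction and side of the threshold, 67 were no longer past it and 13 newly passed it. The first count includes values that were called in neither setting. It also includes values under the alternative filters, where only the adjusted p of a gene or pair can change. It is therefore no measure of how stable the results are. The counts of Cxcl1, a median of 9 reads, limit what its correlations can show.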
